A study of Mus musculus with 12 samples.

Results

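J-domain proteins are the cochaperones of the HSP70 chaperones. They bring an unfolded or misfolded client to an HSP70 and, through a histidine, proline and aspartate motif in the J-domain, trigger the ATP hydrolysis that closes the HSP70 on its client. Members of class A and B also bind clients themselves, whereas class C holds proteins that carry the J-domain within many other architectures and often work at 1 place in the cell, such as the ER membrane, the mitochondrial import channel, a vesicle or the ribosome. Dnajb9 (ERdj4), Dnajb11 (ERdj3) and Dnajc3 (p58IPK) serve BiP in the ER lumen and are well known targets of the unfolded protein response (UPR). The genes described here are the other members of the family.

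The members were all genes whose array name is Dnaja, Dnajb or Dnajc followed by a number, other than those 3 UPR targets. They were 32 genes with 66 probes, out of 27962 genes with 41174 probes on the array. Of the members, 11 had 1 probe and 21 had several. One array name is old, since the transcript NM_020266 listed as Dnajb10 is now Dnajb2. A further 6 genes that now have a Dnajc name were listed under other names and were not counted as members.

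The arrays measured RNA of tibial hypertrophic zones, the layer of the growth plate in which chondrocytes enlarge and secrete collagen X, microdissected from mice at 14 days. Schmid mice were homozygous for Col10a1 p.Asn617Lys, a collagen X that misfolds in the ER, and were compared with wildtype littermates of the Schmid background. Cog mice carried ColXTgcog, a thyroglobulin with the cog mutation that also misfolds in the ER, expressed from a collagen X promoter on top of intact Col10a1, and were compared with wildtype mice of the Cog background. Hemizygous and homozygous Cog mice were not separated for the arrays, so the Cog group most likely mixes both. Each group had 3 arrays, each holding amplified RNA from 1 tibia of 1 mouse, so 12 arrays in all. With 3 mice a group, the array number limits how precisely each value is known.

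Values are log2 intensities after normexp background correction and quantile normalization over the 12 arrays, so a difference of 1 is a 2-fold change in signal. A negative fold change stands for a signal below wildtype. A probe was called changed where limma gave an adjusted p of 0.05 or less over all 41174 probes and the fold change reached 2 in either direction. Signals of different probes depend on the probe and were not compared with each other. In microdissected tissue, fewer cells of a type and less RNA per cell cannot be told apart.

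The members were well represented in this tissue. Of their probes, 37 were well above background on all 12 arrays, 22 on some and 7 on none, which is 56.1% of member probes against 31.1% of all probes. A probe of this kind was present for 26 of the 32 genes. The 6 others were Dnajb7 and Dnajb13, which are known mainly from testis, and Dnajc6, Dnajc7, Dnajc12 and Dnajc13. Dnajb3 and Dnajb8, also listed here as testis members, each had a probe well above background on all 12 arrays. No member spot was saturated and no member lacked a value.

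Of the 4 slides, 1 held the Schmid arrays and nothing else, and none held a mutant beside its own wildtype. Genotype and slide therefore cannot be told apart. Schmid arrays also had the weakest scanner signal at negative control spots, a median of 201.9 to 617.5 against 977.2 to 1894.5 on the other arrays, and the part of this in the results was not tested. Markers of other tissues moved with the Schmid genotype as well. All 7 red cell probes were lower in Schmid (median log2 fold change -3.62) and their summed level was 15.59 to 17.21 on the Schmid arrays against 19.13 to 21.01 on their wildtype arrays. Of the osteoblast markers 2 of 5 probes were called lower, of the endothelial markers 2 of 8, of the proliferating cell markers 1 of 8, and of the osteoclast and neutrophil markers 0 of 4 and 0 of 5. Summed levels in Schmid and its wildtype were 17.14 to 18.14 and 18.49 to 19.62 for osteoblast markers, 12.42 to 12.73 and 13.63 to 14.31 for endothelial markers, and 12.48 to 12.60 and 13.49 to 14.67 for proliferating cell markers. In Cog none of these lists had a called probe. All 5 neutrophil probes were nevertheless higher in Cog (median log2 fold change 1.33), with summed levels of 14.00 to 16.53 against 12.96 to 13.65 in its wildtype. Summed levels of the red cell, osteoblast, endothelial, osteoclast and proliferating cell markers overlapped between Cog and its wildtype. The part of these markers in the values of the J-domain genes was not tested. Col10a1, Ihh and Mmp13, which mark the hypertrophic zone, were well above background on every array, although both Ihh probes were called lower in Schmid (log2 fold change -1.42 and -3.55) and 1 of them in Cog (-1.37). Their summed levels were below wildtype in both mutants, without overlap. They were 15.05 to 15.71 in Schmid against 17.41 to 17.86, and 16.76 to 16.99 in Cog against 17.67 to 17.88. Summed cartilage markers were 20.02 to 20.22 in Schmid against 20.39 to 20.69, and overlapped in Cog. The part of these in the J-domain values was not tested either.

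What each array probe reads is a stretch of 60 bases, and 3 are shown because they carry the results or the family's defining motif. The Dnajc10 probe, which maps to chr2:80161283-80162902 (mm7, plus strand), a span longer than the probe itself, was the only member probe with the histidine, proline and aspartate codons in an open reading frame, and those codons are in capitals. The Dnajb1 probe at chr8:82188753-82188812 (mm7, plus strand) and the Dnajb5 probe at chr4:42971136-42971195 (mm7, plus strand) are the ones that were called in Schmid, and both have a frame without a stop codon.
Dnajc10 A_52_P402577: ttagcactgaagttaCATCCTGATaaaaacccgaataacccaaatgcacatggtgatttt
Dnajb1 A_52_P171663: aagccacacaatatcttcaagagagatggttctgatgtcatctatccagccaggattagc
Dnajb5 A_52_P304264: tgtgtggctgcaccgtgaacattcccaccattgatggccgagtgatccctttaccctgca
Stop codons stood in all 3 sense frames of 15 of the 66 member probes, so those 15 cannot lie wholly in coding sequence. The called Dnaja3 probe was among them. Probes of a gene therefore do not all read the same part of its transcript.

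Promoters were searched because the UPR and the heat shock response act through short DNA elements. RefSeq windows (GRCm38.p6) were found for 27 member genes, and the 250 bases before each start were read on both strands. The ER stress response element, CCAAT and CCACG with 9 bases between them, stood in 0 of the 40 member windows and in 0.113% of all 32851 windows. Of the 3 UPR targets set beside the members, Dnajc3 held it, 105 bases before the start. The letters TGACGTGG stood in 0 member windows and in 0.563% of all windows. The heat shock element core GAANNTTC was found in windows of Dnaja1, Dnaja4 and Dnajb6, and in 6.69% of all windows. The related spacing TTCNNGAA was found in windows of Dnajb4, Dnajb6 and Dnajc10, and in 7.17% of all windows. A run of 3 such units, in which both spacings overlap, stood in Dnajb6 alone among the members, starting 46 bases before its upstream start, and in 0.466% of all windows. The Dnajb6 stretch (chr5:29735822-29735894, plus strand) and the Dnajc3 stretch (chr14:118937797-118937875, plus strand) are shown with the element in capitals.
Dnajb6: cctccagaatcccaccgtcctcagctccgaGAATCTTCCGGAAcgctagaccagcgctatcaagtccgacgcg
Dnajc3: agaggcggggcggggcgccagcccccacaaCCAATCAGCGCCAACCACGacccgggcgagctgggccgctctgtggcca
A match is a match of letters only, and its absence from a window says nothing about regions outside it. None of the 3 Dnajb6 probes, of which 1 was well above background on the Schmid arrays only, was called in any comparison, with log2 fold changes of 0.30 to 1.02 in Schmid and -0.32 to 0.12 in Cog.

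The first comparison asked which J-domain genes outside the UPR set differed between Schmid and wildtype hypertrophic zones. Dnaja3, Dnajb1 and Dnajc13 each had 1 probe called higher, and Dnajb5 and Dnajc11 each had 1 probe called lower. The other 61 probes were not called. The authors had already reported Dnaja3, Dnajb1 and Dnajc13, from these arrays, among the chaperones raised in Schmid and not in Cog. The 3 probes called higher were 4.55% of the members, against 5.78% of all probes, and the 2 called lower were 3.03%, against 4.69% of all probes. Member probes were more often well above background than all probes. In a fit of only probes well above background on all arrays of a group, 2375 of 24331 were called higher and 1980 lower. Of the 53 member probes in that fit, 3 were higher and 2 lower. Without the fold requirement, 13 member probes (19.7%) passed the adjusted p, against 24% of all probes. The median log2 fold change was 0.10 over the members and -0.06 over all probes. The split over all probes, 2380 higher and 1930 lower, turned to 2569 and 3455 with scaling of the normexp values to the 75th percentile, where the members had 5 and 3.

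Dnaja3 (Tid1) is the J-domain partner of the mitochondrial HSP70 in the matrix. Its brighter probe, A_52_P268387, read 14.53, 13.75 and 13.86 on the Schmid arrays and 12.25, 11.58 and 12.53 on their wildtype arrays. Every Schmid array was above every wildtype array. The log2 fold change was 1.93 ± 0.30 (SE), a fold change of 3.80 (adjusted p = 0.00167). Its other probe, A_51_P326542, was well above background on 2 Schmid arrays only. It read 10.07, 9.32 and 9.48 in Schmid against 8.90, 8.86 and 8.66 in wildtype, a log2 fold change of 0.82 (adjusted p = 0.023) that stayed under 2-fold. Both probes were thus separated in the same direction, but the size rests on the brighter one. With the wildtype arrays set to the background limit, the dim probe was 1.09-fold higher. That is not a strict limit, because not every Schmid array was well above background itself.

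Dnajb1 (Hsp40) is the classical heat inducible partner of cytosolic HSP70. Probe A_52_P171663 read 12.97, 12.15 and 12.21 in Schmid and 11.45, 10.59 and 11.04 in wildtype. The groups did not overlap, and the log2 fold change was 1.42 ± 0.35 (adjusted p = 0.0172), a fold change of 2.67. The other Dnajb1 probe, A_51_P153486, read 17.00, 16.30 and 16.52 in Schmid and 15.82, 16.18 and 15.87 in wildtype. Here too the groups were separated, but the log2 fold change of 0.65 (95% interval 0.04 to 1.27) was not called (adjusted p = 0.109). The call of the first probe was lost without Schmid replicate 1 (adjusted p = 0.0675) and without wildtype replicate 2 (adjusted p = 0.0711).

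Dnajc13 (RME-8) works with HSP70 on endosomes and had a single probe. It read 12.39, 11.83 and 11.88 in Schmid and 10.99, 9.20 and 11.02 in wildtype, where 1 array was not well above background. Wildtype replicate 2 lay far below the other wildtype arrays. The log2 fold change was 1.63 ± 0.49 (adjusted p = 0.0372), and without that array it was 1.02 with an adjusted p of 0.103. With the replicate number as a block the adjusted p was 0.0566 in the fit of all arrays and 0.0428 in Schmid and its wildtype alone. Without the block it was 0.0734 in these groups alone. The call was also lost without any 1 of the 3 Schmid arrays (adjusted p of 0.0704 to 0.117).

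Dnajb5 (Hsc40) is a cytosolic class B member. Probe A_52_P304264 read 9.74, 9.93 and 9.96 in Schmid and 10.64, 11.29 and 11.22 in wildtype. No Schmid array reached the lowest wildtype value, and the fold change was -2.26 (log2 fold change -1.17 ± 0.18, adjusted p = 0.00157). Probe A_51_P227112 read 9.92, 10.15 and 10.14 in Schmid and 10.18, 10.38 and 10.40 in wildtype. Those groups did not overlap either, but the log2 fold change was -0.25 and was not called (adjusted p = 0.208). At A_52_P348704, which was mostly not well above background, it was -0.15 (adjusted p = 0.43). The called probe lies in row 82 of the 532 rows of the array, where the median log2 fold change of the probes in nearby rows was -0.27. With a smooth trend over the rows removed from each array, its log2 fold change was -0.90 (adjusted p = 0.00376), and with a trend over GC content removed as well it was -0.58 (adjusted p = 0.00548). Both are under 2-fold.

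Dnajc11, a mitochondrial protein associated with the complex that shapes the cristae, was the other member called lower. Probe A_52_P554506 read 8.46, 8.84 and 8.62 in Schmid, none of them well above background, and 9.99, 10.10 and 10.33 in wildtype, all well above background. The measured Schmid values were therefore a limit, and the probe was at least 2.26-fold lower in Schmid. The limma test was of the fitted log2 fold change, -1.50, which uses those Schmid values as read (adjusted p = 0.000485). The other Dnajc11 probe, A_51_P398235, was printed as 10 spots on each array, whose SD within an array was 0.08 to 0.16. It read 10.49, 10.62 and 10.69 in Schmid and 10.45, 10.78 and 11.11 in wildtype. Those groups overlapped, and the log2 fold change was -0.18 (95% interval -0.73 to 0.37, adjusted p = 0.62). So 1 probe of this gene was separated between the groups and the other was not.

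**Figure D1:**
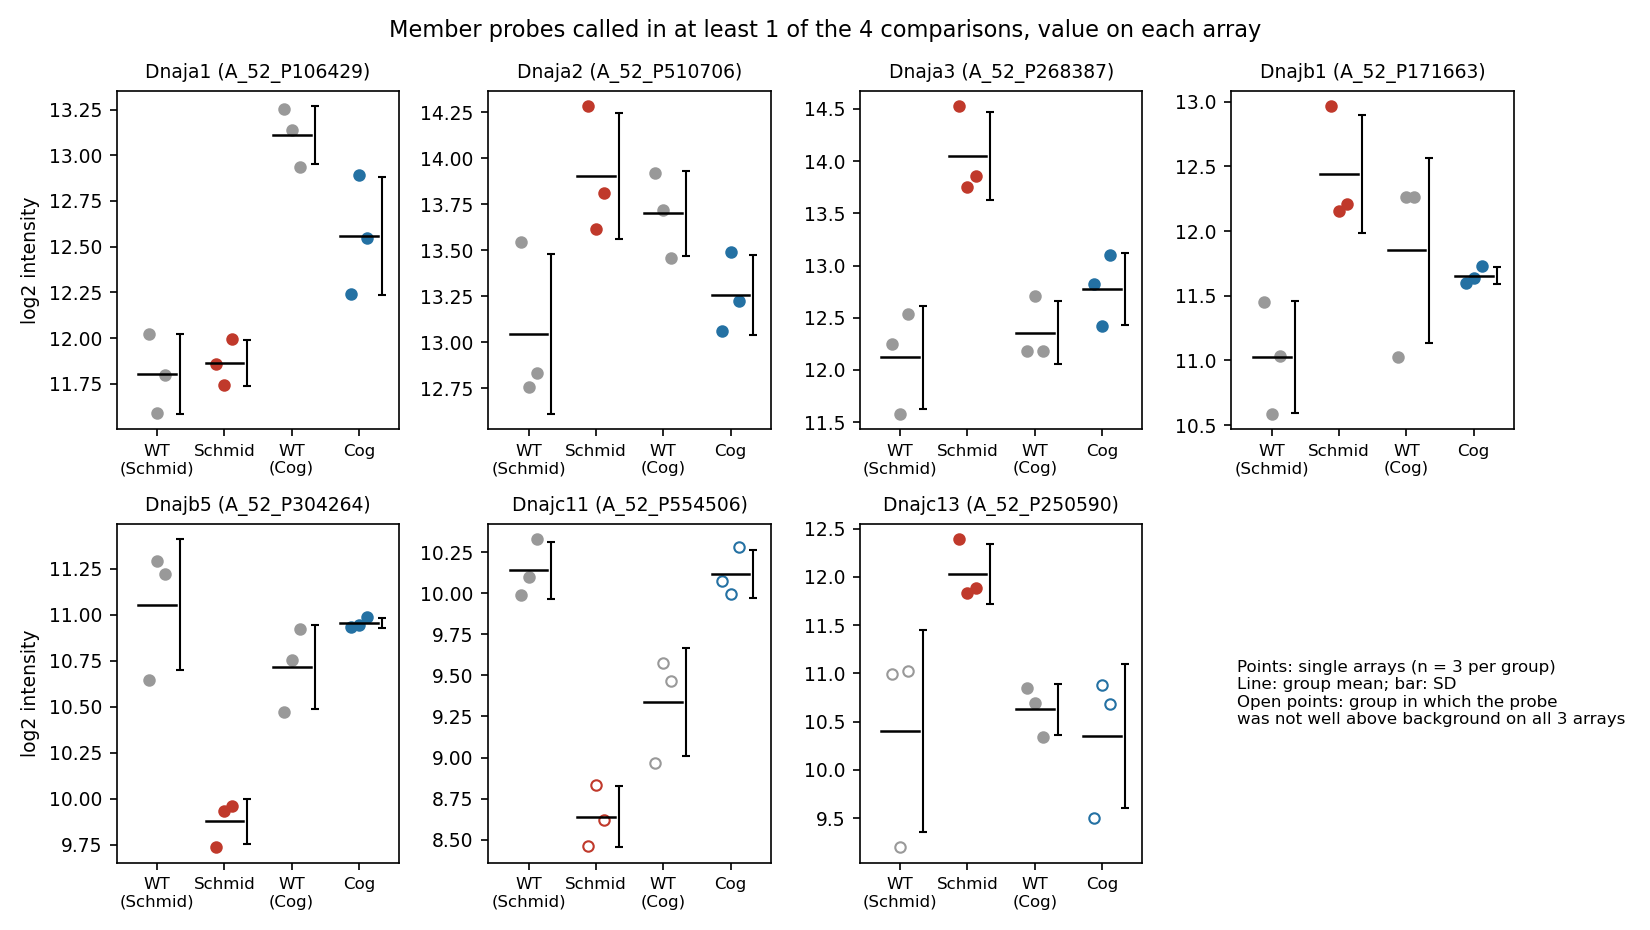
Log2 intensity of the 7 member probes called in at least 1 of the 4 comparisons, with 1 point for each array, a line for the mean and a bar for the SD (n = 3 a group). The Schmid points of Dnaja3, Dnajb1 and Dnajc13 lie above, and those of Dnajb5 and Dnajc11 below, all 3 points of their own wildtype.

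Probes of the same member gene did not always agree. Of the 21 genes with several probes, 4 had a called probe in Schmid and 0 had more than 1. In 12 of the 21 all probes lay on the same side of 0 in Schmid. Of 9 genes with several probes well above background on all arrays, 5 had all such probes on the same side. These counts were not made for the other genes of the array. The range of the log2 fold change between probes of a gene had a median of 0.47 and was widest for Dnajc5, at 1.58. Dnajc5 is the cysteine string protein of secretory vesicles. Its probe A_52_P113126 read 11.51, 11.50 and 11.45 in Schmid and 11.43, 9.81 and 10.21 in wildtype, a log2 fold change of 1.0 (95% interval 0.23 to 1.78, adjusted p = 0.0609). Its probe A_51_P178585 had a log2 fold change of -0.58 (adjusted p = 0.16), with no overlap between the groups in the opposite direction. Neither passed the test. The remaining Dnajc5 probe, A_52_P113129, was not called in either mutant. Over the 25 alternatives its log2 fold change was 0.23 to 0.77 in Schmid and 0.44 to 0.95 in Cog.

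**Figure D2:**
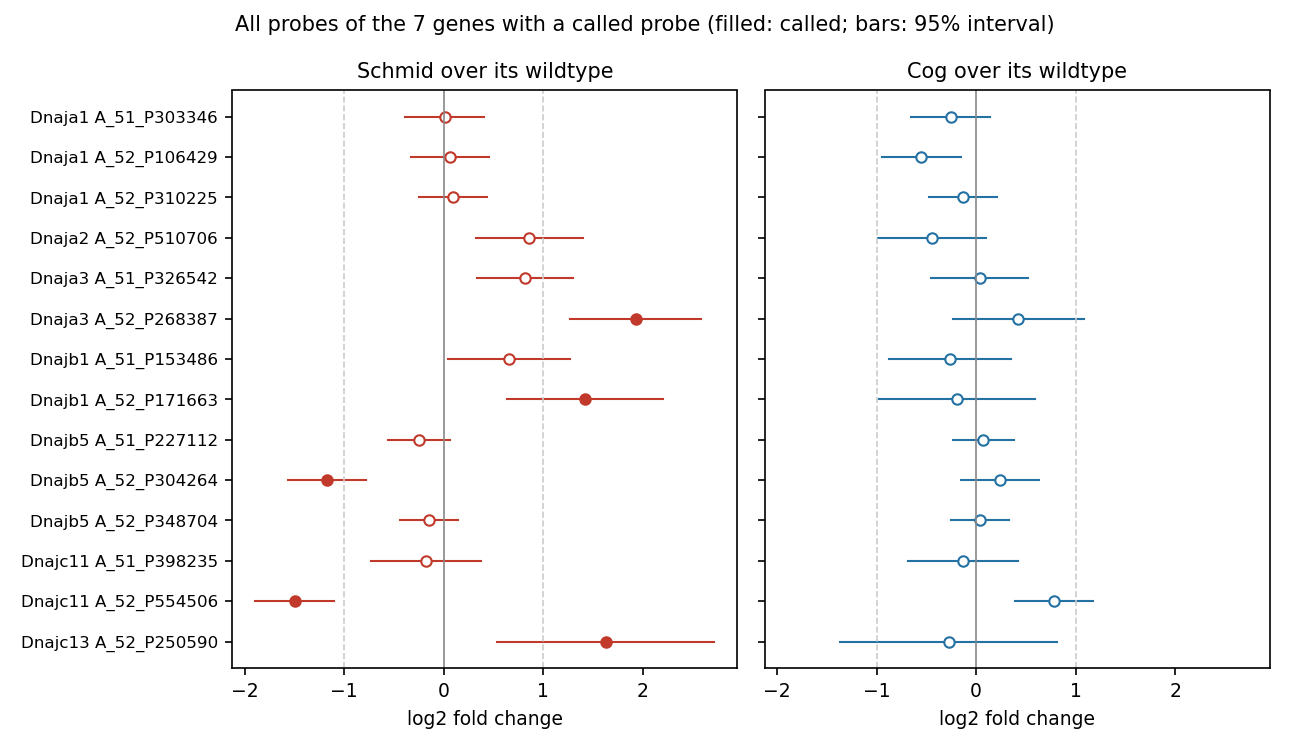
Log2 fold change with its 95% interval in Schmid (left) and Cog (right) for all 14 probes of the 7 genes with a called probe, filled where called. The second probes of Dnajb1 and Dnajc11 and the 2 further Dnajb5 probes are not called, and no point in the Cog panel is filled.

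By place in the cell, the called probes were spread over several small lists. Among 9 cytosolic or nuclear general chaperone members with 20 probes, 1 was called higher and 1 lower (median 0.08), and among 5 mitochondrial members with 9 probes also 1 and 1 (median -0.12). Among 3 vesicle and membrane traffic members with 5 probes, 1 was called higher (median 0.48). These were 10%, 22.2% and 20% of the probes, against 10.5% of all probes called in either direction. With so few probes a list, the shares are descriptions. The 4 members of ribosome, splicing and chromatin, with 8 probes, had none called and a median of 0.51. Dnajc9, a nuclear member that chaperones histones, had the largest value of these, 1.09 at probe A_51_P162471 (adjusted p = 0.193). That probe was called higher when Schmid and its wildtype were fitted alone, with the replicate number as a block (adjusted p = 0.0283) and without it (adjusted p = 0.0466), but not with the block in the fit of all arrays (adjusted p = 0.103). Its dimmer probe, well above background on 2 Schmid arrays and on no other array, had 0.72 (adjusted p = 0.0251), under 2-fold. The 4 testis members, with 5 probes, had none called and a median of -0.50.

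Separation of the groups was more frequent in the upward direction. At 17 member probes (25.8%, against 19.3% of all probes) every Schmid array was above every wildtype array, and at 9 (13.6%, against 26.1% of all probes) every Schmid array was below. Among these were Dnaja2, a class A partner of cytosolic HSP70, which read 14.29, 13.62 and 13.81 in Schmid and 13.55, 12.76 and 12.83 in wildtype. Its log2 fold change of 0.86 ± 0.24 (adjusted p = 0.029) did not reach 2-fold.

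The second comparison asked the same of Cog. No member probe was called, and the 3 Cog arrays rarely stood apart from their wildtype. By limma, 0 of 66 were called higher, against 1.56% of all probes, and 0 lower, against 0.748%. An unadjusted p of 0.05 or less was found at 9 member probes (13.6%, against 21.3% of all probes). The adjusted p passed the threshold at 1 (1.52%, against 4.58% of all probes). Cog was entirely above its wildtype at 5 member probes (7.58%, against 16.4% of all probes) and entirely below at 3 (4.55%, against 13% of all probes). The median log2 fold change was -0.13 over the members and 0.00 over all probes, and the members ranged from -1.17 for Dnajc9 to 1.16 for Dnajc2. Other settings called at most 1 member probe in each direction.

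The member probe with an adjusted p under the threshold in Cog was the dim Dnajc11 probe A_52_P554506. It read 10.07, 9.99 and 10.28 in Cog and 8.96, 9.58 and 9.47 in its wildtype, where no array was well above background. Cog lay above its wildtype on every array, by at least 1.36-fold (fitted log2 fold change 0.78, adjusted p = 0.0362). At this probe wildtype of the Schmid background also read above wildtype of the Cog background on every array. That difference was not called. Over the 25 alternatives its log2 fold change was 0.62 to 2.00, called under 2 of them. Its part in the Cog value was not tested. The same probe was lower in Schmid, and the 10-spot Dnajc11 probe had a log2 fold change of -0.13 in Cog (adjusted p = 0.809).

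The other 4 probes called in Schmid were not called in Cog either. Dnaja3 probe A_52_P268387 read 12.82, 12.42 and 13.10 in Cog and 12.18, 12.70 and 12.18 in wildtype (log2 fold change 0.42, adjusted p = 0.448). Dnajb1 probe A_52_P171663 read 11.60, 11.64 and 11.73 in Cog and 11.02, 12.27 and 12.26 in wildtype (log2 fold change -0.19, adjusted p = 0.795). The groups overlapped at both probes. The single Dnajc13 probe read 9.50, 10.88 and 10.68 in Cog and 10.85, 10.69 and 10.34 in wildtype (log2 fold change -0.28, adjusted p = 0.792). Dnajb5 probe A_52_P304264 read 10.93, 10.94 and 10.99 in Cog and 10.47, 10.75 and 10.92 in wildtype (log2 fold change 0.24, adjusted p = 0.478), with the Cog arrays narrowly above. The 95% interval of the Cog log2 fold change was -0.23 to 1.08 for Dnaja3, -0.98 to 0.59 for Dnajb1 and -1.37 to 0.82 for Dnajc13. These intervals reach past 2-fold upward for Dnaja3 and past 2-fold downward for Dnajc13.

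**Figure D3:**
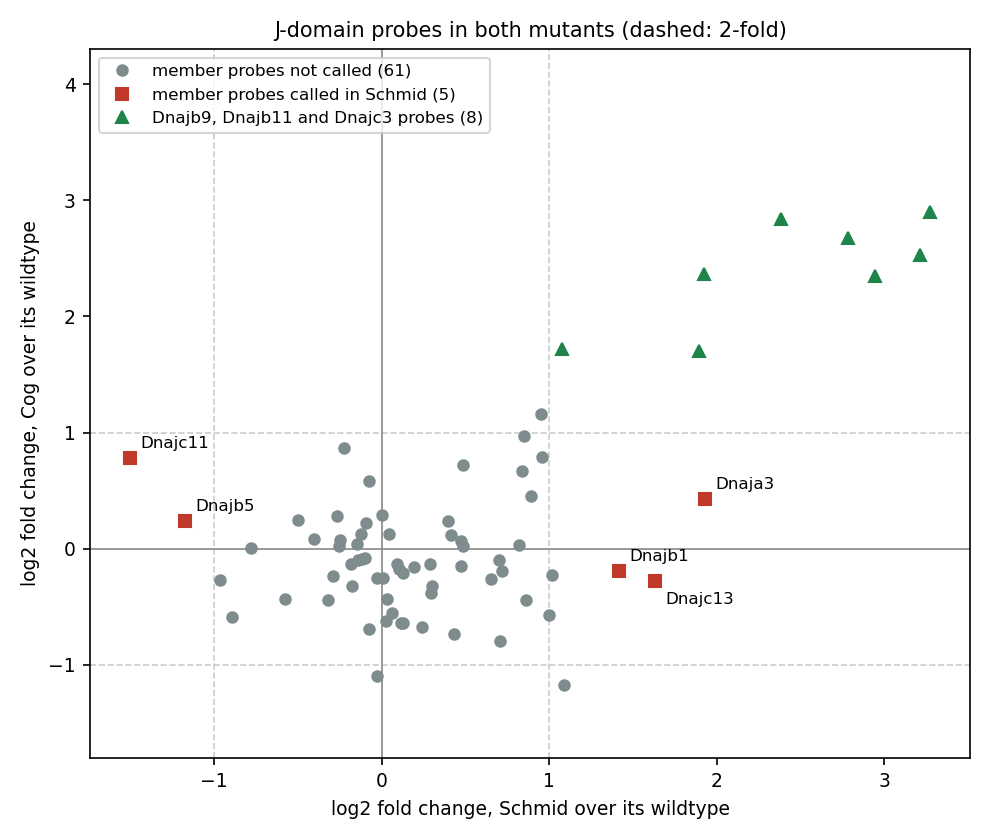
Log2 fold change of each J-domain probe in Schmid (horizontal) and in Cog (vertical), with dashed lines at 2-fold. The 61 uncalled member probes (grey) gather around 0, the 5 called in Schmid (red squares) lie left or right but within 2-fold in Cog, and the 8 probes of Dnajb9, Dnajb11 and Dnajc3 (green triangles) lie above 1 on both axes.

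Whether the effects differed between the mutants was tested directly, as the Schmid effect minus the Cog effect. Dnaja3 and Dnaja2 were called higher (2 of 66 probes, 3.03%, against 4.38% of all probes) and Dnajb5 and Dnajc11 lower (2 of 66, 3.03%, against 5.88%). Without the fold requirement, 6 member probes passed (9.09%, against 16.6% of all probes). With the same scaling of the normexp values the members had 6 and 3, and with the processed signal scaled that way 1 and 3. The Schmid effect exceeded the Cog effect by 1.50 ± 0.42 on the log2 scale at Dnaja3 probe A_52_P268387 (adjusted p = 0.0355) and by 1.30 ± 0.34 at Dnaja2 (adjusted p = 0.0291). Dnaja2 read 13.06, 13.49 and 13.22 in Cog and 13.92, 13.72 and 13.46 in wildtype, so its value in Cog was -0.44 (adjusted p = 0.331) and its difference was made up of both comparisons. The difference was -1.41 ± 0.25 at Dnajb5 probe A_52_P304264 (adjusted p = 0.00526), and -0.70 (adjusted p = 0.0185), under 2-fold, with trends over array rows and GC content removed. It was -2.28 ± 0.25 at Dnajc11 probe A_52_P554506 (adjusted p = 0.000736), where no Schmid array and no wildtype array from the Cog strain was well above background, so that size is a fitted value and not a measured one. The calls of Dnaja3 and Dnaja2 were each lost under 11 of 25 other settings, with an adjusted p of at most 0.0939 and 0.0795. For Dnajb1 and Dnajc13 the differences were 1.61 (adjusted p = 0.0515) and 1.90 (adjusted p = 0.0878), so a difference between the mutants was not shown for these genes. The authors listed both as raised in Schmid and not in Cog, from each mutant against its wildtype. At Dnajc9 probe A_51_P162471 the difference was 2.26 (adjusted p = 0.0883), and it was called with the replicate number as a block (adjusted p = 0.0427). Both mutants were measured against their own wildtype. At the dim Dnajc11 probe those wildtypes were themselves apart, with the Schmid background higher on every array.

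The wildtype groups were compared to see how far the members differ without a mutation. Of the 66 member probes 0 were called higher in wildtype of the Schmid background (0.233% of all probes) and 1 was called lower (1.52%, against 0.236% of all probes). This was Dnaja1 probe A_52_P106429. Dnaja1 (Hdj2) is the main farnesylated class A partner of cytosolic HSP70. The probe read 12.02, 11.59 and 11.80 in wildtype of the Schmid background and 13.26, 13.14 and 12.94 in wildtype of the Cog background, with no overlap and a log2 fold change of -1.31 ± 0.18 (adjusted p = 0.0127). It read 11.86, 11.74 and 11.99 in Schmid and 12.24, 12.89 and 12.54 in Cog, again with no overlap. Probe A_51_P303346 of the gene was separated in the same direction, with a log2 fold change of -0.61 (adjusted p = 0.147), and the dim probe A_52_P310225 had 0.08 (adjusted p = 0.88). The call was lost when the wildtype groups were fitted alone (adjusted p = 0.104), with the replicate number as a block in that fit (adjusted p = 0.18), and when replicate 2 of the Cog wildtype was left out (adjusted p = 0.0578). Neither mutant differed from its own wildtype at Dnaja1 by a call, with Schmid log2 fold changes of 0.01 to 0.09 and Cog log2 fold changes of -0.55 to -0.13. By limma the unadjusted p between the wildtypes was 0.05 or less at 13 member probes (19.7%), against 5817 of all 41174 probes. Of the 20 cytosolic or nuclear general chaperone probes, 15 were lower in wildtype of the Schmid background and 5 higher (median -0.32). Dnaja2 had -0.65 (adjusted p = 0.256) and the Dnajb1 probes -0.68 and -0.83 (adjusted p of 0.302 and 0.325). The part of this in the Schmid values was not tested.

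The ER is where the misfolded collagen X and thyroglobulin accumulate, and 6 members are proteins of the ER membrane or lumen: Dnajb12, Dnajc1, Dnajc10, Dnajc14, Dnajc16 and Dnajc18. None of their 18 probes was called in any of the 4 comparisons, with limma. The unadjusted p was 0.05 or less at 5 probes in Schmid (27.8%, against 39.3% of all probes) and 2 in Cog (11.1%, against 21.3% of all probes). The adjusted p passed at 2 probes in Schmid (11.1%, against 24% of all probes) and 0 in Cog (against 4.58%). The 18 probes had a median log2 fold change of 0.15 in Schmid and 0.05 in Cog. Of the 3 UPR targets set beside them, Dnajb9, Dnajb11 and Dnajc3, 8 of 8 probes were called higher in both mutants, with medians of 2.58 in Schmid and 2.45 in Cog. The authors had already reported these 3 genes as upregulated in both mutants from these arrays. The contrast is therefore a description, and no test compared the sets. The lowest of those 8 was Dnajb11 in Schmid (log2 fold change 1.08, adjusted p = 0.00609), which was above the highest ER member value in either mutant.

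Dnajc1 (ERdj1), an ER membrane protein that binds BiP and the ribosome, came closest. Its brightest probe, A_51_P159896, read 15.11, 14.67 and 15.15 in Schmid and 14.52, 13.76 and 13.77 in wildtype, and 13.68, 14.48 and 14.86 in Cog and 13.72, 13.40 and 13.53 in wildtype. The Schmid groups were separated and the Cog groups overlapped. In Schmid the log2 fold change was 0.96 ± 0.30 (adjusted p = 0.0432), and in Cog it was 0.79 ± 0.30 (adjusted p = 0.163). All 4 Dnajc1 probes had positive values in both mutants, none of them 2-fold. They spanned 0.49 to 0.96 in Schmid and 0.03 to 0.97 in Cog. Over the 25 other settings the Schmid value of A_51_P159896 was 0.82 to 1.21, and 4 settings, the deposited log2 values among them, called it higher.

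Dnajc10 (ERdj5) reduces disulfides of proteins bound for degradation. Here the brightest probe, A_51_P225276, read 13.18, 13.21 and 13.35 in Schmid, 13.70, 13.31 and 13.60 in wildtype, 13.28, 13.73 and 13.62 in Cog, and 13.68, 13.89 and 13.76 in wildtype. The log2 fold change was -0.29 in Schmid (95% interval -0.63 to 0.05) and -0.23 in Cog (95% interval -0.57 to 0.11). The other 3 Dnajc10 probes, including the J-domain probe shown above, which was well above background on no array, lay between -0.03 and 0.29 in Schmid and between -0.38 and -0.16 in Cog.

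Dnajb12 is an ER membrane member that works with cytosolic HSP70 in the degradation of membrane proteins. Probe A_52_P92302 read 12.28, 13.22 and 13.20 in Schmid, 12.63, 13.38 and 13.36 in wildtype, 13.68, 13.19 and 13.35 in Cog, and 11.66, 12.88 and 13.07 in wildtype. The Cog arrays were all above their wildtype, by 0.87 on average, without passing the test (adjusted p = 0.231), and Schmid overlapped with its wildtype (-0.22, adjusted p = 0.705).

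Dnajc14 (DRiP78), Dnajc16 and Dnajc18 are further ER membrane members. The brightest Dnajc14 probe, A_51_P185775, read 12.16, 11.71 and 11.67 in Schmid, 11.73, 11.31 and 11.78 in wildtype, 11.87, 11.56 and 10.51 in Cog, and 12.46, 11.86 and 11.65 in wildtype. The brightest Dnajc16 probe, A_52_P117536, read 11.88, 11.40 and 11.47 in Schmid, 11.79, 10.40 and 11.27 in wildtype, 10.16, 11.69 and 10.24 in Cog, and 10.88, 12.14 and 11.28 in wildtype. The brighter Dnajc18 probe, A_52_P271, read 13.98, 14.39 and 14.25 in Schmid, 13.86, 14.66 and 14.38 in wildtype, 14.36, 14.36 and 15.03 in Cog, and 14.56, 14.30 and 14.22 in wildtype. Mutant and wildtype overlapped at all 3 in both comparisons, with log2 fold changes of 0.24, 0.43 and -0.09 in Schmid and -0.68, -0.74 and 0.22 in Cog.

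**Figure D4:**
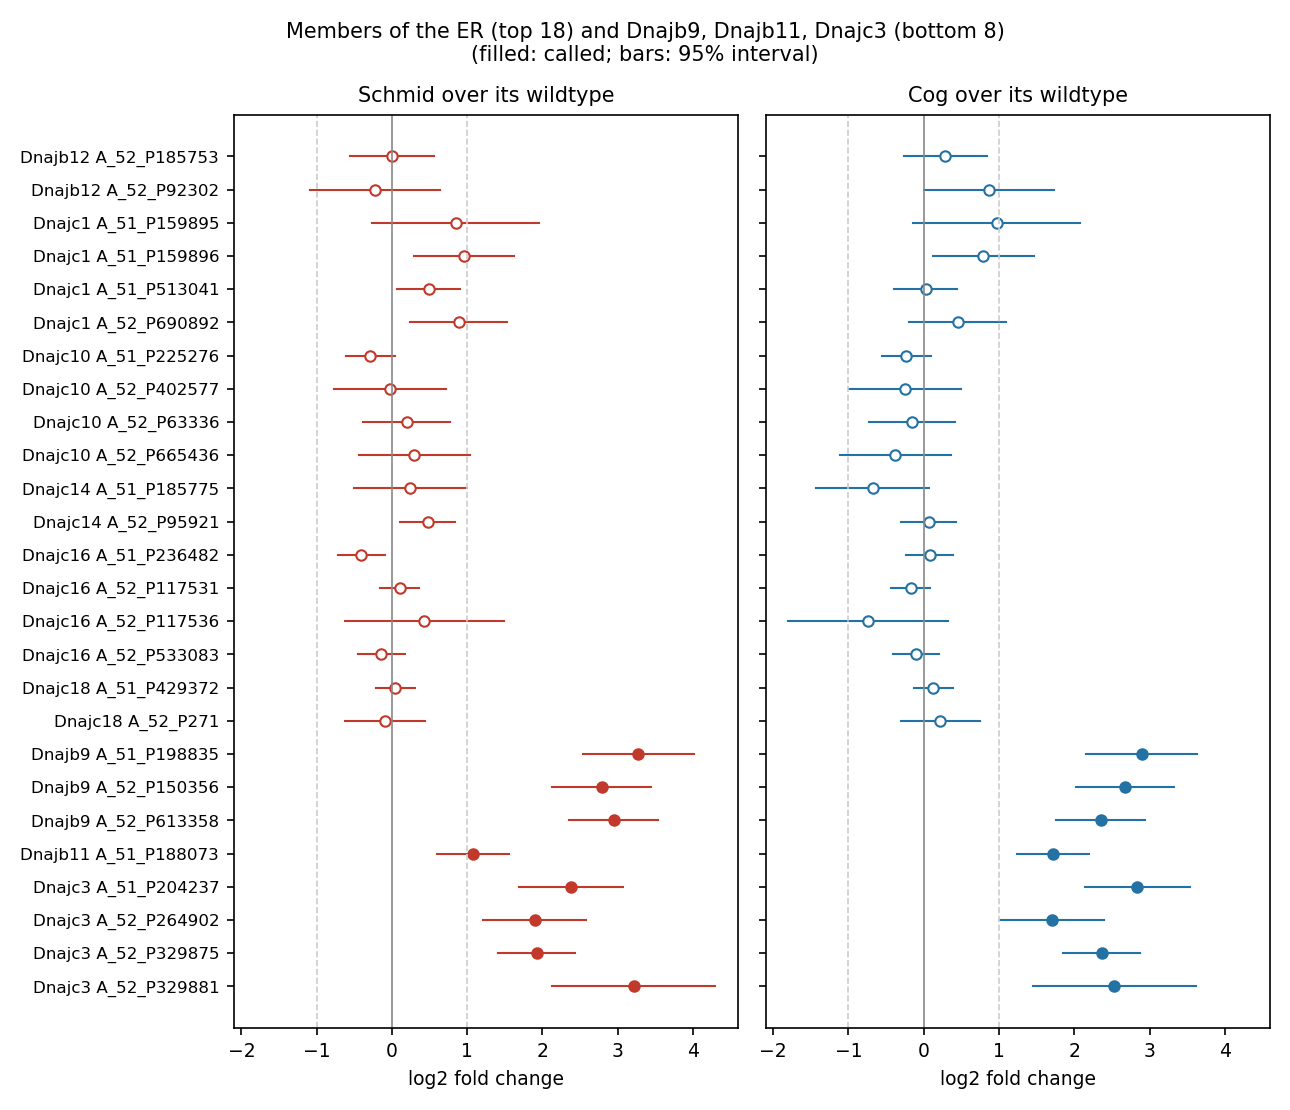
Log2 fold change with its 95% interval in Schmid (left) and Cog (right) for the 18 probes of the 6 ER members and, below them, the 8 probes of Dnajb9, Dnajb11 and Dnajc3, filled where called. All 8 lower points are filled and to the right of 1 in both panels, and no ER member point is filled.

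The HSP70 proteins that J-domain members serve were listed beside them. Of 22 probes of 10 HSP70 genes, 7 were called higher and 0 lower in Schmid, and 2 higher and 1 lower in Cog. Of 30 probes of 15 genes for nucleotide exchange factors and other cofactors, 9 were called higher and 0 lower in Schmid, and 1 higher and 0 lower in Cog. In Schmid these were 31.8% and 30% of the probes, against 10.5% of all probes called in either direction. In Cog they were 13.6% and 3.33%, against 2.31% of all probes. No probe was called in Schmid for 6 of the 10 HSP70 genes and 8 of the 15 cofactor genes. These lists were drawn up with earlier results of these data known, so the counts are descriptions. The partners given below all had a probe called higher in Schmid. For the mitochondrial partners of Dnaja3, Hspa9a, the mitochondrial HSP70, was called higher at both probes in Schmid, with log2 fold changes of 2.28 and 1.09 (adjusted p of 0.000451 and 0.0119). In Cog these were 0.94 and 0.20 (adjusted p of 0.0768 and 0.689). Grpel1, its nucleotide exchange factor, was called higher in Schmid at 2 of 3 probes, with 1.23 and 1.42 (adjusted p of 0.00171 and 0.0278), and the third, well above background on no array, had 0.08. In Cog the first 2 had -0.07 and -0.87 (adjusted p of 0.871 and 0.242). For the cytosolic partner of Dnajb1, Hspa1a, an inducible HSP70 with a near identical copy that the probes may also read, was called higher in Schmid at 2 of 4 probes, with 2.97 and 2.31 (adjusted p of 0.00472 and 0.00394), while the other 2 had 0.11 and -0.57 (adjusted p of 0.744 and 0.0362). In Cog the first 2 had 0.15 and 0.12 (adjusted p of 0.91 and 0.904). At Hspa5 (BiP), the ER partner, both mutants were called higher, by 2.04 in Schmid and 2.27 in Cog on the log2 scale (adjusted p of 0.00138 and 0.00518).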

How the data were processed

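The authors extracted the arrays with Agilent Feature Extraction 9.5.3, and the deposited scanner files hold the intensity of each spot and of its local background, before any normalization between arrays. A deposited table of processed log2 values, which correlated by 0.99987 or more with those made here, was used as an alternative. Deposited flags (other than intensities) mark the spots well above background.

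As in the authors' methods, the intensities received normexp correction with an offset of 50 and, control spots aside, quantile normalization. Repeat spots were then averaged per probe. Spots flagged as outliers were left out (99.8% kept), which leaves 33 of 41174 probes without a value on some array, none of them a member. The group means were fitted with limma 3.58.1 in R 4.3.3 (8 residual degrees of freedom), with Benjamini-Hochberg adjustment over all probes. The fit was tested on simulated data. Where every array of a group lacked a signal well above background, the fold is a limit: the dim group was set, array by array, to the lowest signal that passed, or to its own value where that was higher. The brighter group was used as read. Of 46 member accessions 32 were in the RefSeq table, and probe coordinates are those of the files (mm7). Figures were drawn with matplotlib.

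Values on each array are given for members with a probe called in any of the 4 comparisons and, by its brightest probe, for each ER member. Dnajc5 and the examples among uncalled probes were picked after their values were seen. The members and gene lists were chosen with earlier results of these data known. In all, 25 alternatives were run: 13 other settings of the processing or the fit, and each of the 12 arrays left out. Protein sequences were not used here.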

Additional observations from a re-analysis of the deposited data

Results flagged for a closer look

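The effect of the mutation differed between Schmid and Cog at 4 member probes by the limma test of the difference itself. The log2 difference was 1.50 at Dnaja3 probe A_52_P268387 and 1.30 at Dnaja2 probe A_52_P510706, both higher in Schmid. It was -1.41 at Dnajb5 probe A_52_P304264 and -2.28 at Dnajc11 probe A_52_P554506, both lower in Schmid. At Dnajc5 probe A_52_P113126 every Schmid array lay above its wildtype and every Cog array below its wildtype. There the log2 difference was 1.57, and the test of it did not pass the threshold (adjusted p = 0.0548). The lowest Schmid array and the highest wildtype array were almost level at this probe. Of the other Dnajc5 probes, A_51_P178585 was lower in both mutants and A_52_P113129 higher in both, without a call.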

How the results depend on the processing

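Of the probes called in Schmid, Dnaja3 A_52_P268387 and Dnajc11 A_52_P554506 kept direction and call under all 25 alternatives (log2 fold change 1.66 to 2.13 and -3.85 to -1.18). Dnajb1 and Dnajb5 kept theirs under 23 and Dnajc13 under 14, and no called value changed sign. With 3 called higher and 2 lower in Schmid, the processed signal gave 7 and 5 scaled to the 75th percentile and 7 and 4 with quantile normalization, normexp with the 75th percentile gave 5 higher, array weights gave 9 higher, and removing the trend over rows, alone or with GC content, gave 1 lower. In Cog, with 0 and 0, both processed signal settings, the slide as a random block and array weights gave 1 higher, and array weights 1 lower. For the difference, with 2 and 2, the higher count was 1 with the processed signal at the 75th percentile, 5 with its quantile normalization, 6 with normexp at the 75th percentile, 4 with only probes above background, 6 with the slide as a random block and 5 with array weights. The lower count was 5 with the quantile normalized processed signal and 1 with rows and GC content removed. Between the wildtypes, with 0 and 1, both processed signal settings gave 1 higher, and the lower count was 0 with the processed signal at the 75th percentile, 0 with only the groups compared and 2 with array weights. The cause was not tested. Scaling to the 75th percentile moved the median of all probes in Schmid from -0.06 to -0.40 (processed signal) and -0.35 (normexp), and of the difference from -0.03 to -0.66 and -0.31. In Cog the processed signal moved it to 0.43.

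Leaving out each array gave 1 to 8 higher and 2 to 3 lower in Schmid, 0 to 1 and 0 to 1 in Cog, 0 to 5 and 2 to 3 for the difference, and 0 to 1 and 0 to 2 between the wildtypes. The 8 and the 5 came without wildtype replicate 1 of the Schmid background, and the 1 in Schmid without Schmid replicate 1 or wildtype replicate 2. No call for the difference upward remained without Schmid replicate 1 or 3, wildtype replicate 2 of the Schmid background or wildtype replicate 2 of the Cog background.

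Arrays with the same replicate number correlated by 0.07 to 0.19 between Schmid and its wildtype after group means were removed (0.12 to 0.31 over probes well above background), by -0.12 to 0.07 between Cog and its wildtype, and by 0.05 to 0.41 between the wildtypes (0.12 to 0.50 over probes well above background). Not every pair was over 0.1 over all probes, so the numbers were not taken to pair the arrays. With the replicate block in all arrays, 2 member probes were higher and 2 lower in Schmid, and in the groups compared alone 4 and 2. The difference had 3 higher and 2 lower with either block. The calls that the block changed were those of Dnajc9 A_51_P162471, Dnajc13 and Dnaja1 A_52_P106429. The wildtype comparison then had 0 lower in the groups alone.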
